A study of Homo sapiens with 3 samples.

Results

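The genes described here are 32 protein-coding genes that p53 is known to switch on, and the question was where RNA of these genes was listed as bound by RPL22 and by its paralog RPL22L1. They were taken as a fixed list of gene symbols, and all 32 were found among the 20050 protein-coding genes of the RefSeq table of GRCh38.p14. The gene of p53 itself is not among them. Their lengths ran from 2.42 to 215.5 kb, with a median of 23.2 kb against 24.1 kb for all protein-coding genes.

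The p53 protein is a transcription factor that is stabilised when DNA is damaged or when ribosome assembly is disturbed. Its targets stop the cell cycle, repair DNA, start cell death, adjust metabolism and send signals to other cells, and some of them feed back on p53. RPL22 and RPL22L1 are related proteins of the large ribosomal subunit, and free ribosomal proteins can also bind RNA outside the ribosome.

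RNA bound by each protein was collected by GoldCLIP, in which RNA crosslinked to a HaloTag fusion is pulled down through the covalent bond between the tag and its resin and is then sequenced. The cells were HCT116, a long-established line from a human colorectal carcinoma, grown in McCoy's 5a medium with fetal bovine serum. One group carried the genotype RPL22-HaloTag and the other the genotype RPL22L1HaloTag, each with 1 library, and no drug or damage treatment is named for either. A library with the tag alone was not analysed here. The labels do not say whether the tag was placed at the native gene or on an added copy, or how many clones were used, and both groups share the tag itself. The peak lists are called the RPL22 list and the RPL22L1 list below. They held 154000 and 254413 peaks, and the number of reads behind them is unknown. With 1 library per group there was no test between the proteins, and no SD or p-value is given. Intervals in brackets are exact Clopper-Pearson 95% intervals, which cover counting error only. Peak lists cannot be checked for markers of a cell type.

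A peak was given to every gene whose bounds held its summit, the position the authors marked as its highest point. Peaks 30 bases wide with the summit offset at 15 are called flat here, because such a peak shows no shape of its own. Each peak also has a whole-number score that is the authors' own value. It was used only to rank peaks within a list, and "top 2%" below means a place within the highest-scoring 2% of that list. The lists gave no strand, so reads of a gene and of an overlapping or antisense gene cannot be told apart. How much RNA each gene made was not measured here, so a large number of summits and a large amount of RNA cannot be told apart.

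Sequence could be shown for peaks at 4 start sites, from RefSeq promoter sequences on GRCh38.p14. They are printed to show what lies under member peaks at the 5′ end, read on the strand of the gene, with the 5 bases centred on the summit in capitals.
CCNG1 (chr5:163437599-163437628, plus strand): tcggctccgagctgaccCTGATcagggccg
ZMAT3 (chr3:179071871-179071900, minus strand): ccgctgccgggcCTGCTccgccaagcacat
KITLG (chr12:88580341-88580370, minus strand): gccgctgttcgtgcaaTATGCtggagctcc
PMAIP1 (chr18:59900003-59900032, plus strand): cccgggcactcaccgtgtgtagttggcatc
The CCNG1 sequence is a whole RPL22 peak and covers bases 5 to 34 from the nearest listed start. An RPL22L1 peak began at the next base, 163437629, and shared none of it. The ZMAT3 sequence is a whole peak that both lists gave with the same bounds and summit, 91 to 62 bases before the listed start of ZMAT3 but inside its gene bounds. The KITLG sequence is part of an RPL22 peak of 47 bases, came from the promoter entry of LOC105369885 and covers bases 102 to 131 from the listed start of KITLG. The PMAIP1 sequence is the first 30 bases of an RPL22 peak of 154 bases, whose summit lies further on, so it has no capitals. G and C made up 21, 22, 18 and 19 of the 30 bases in this order.

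One member peak lay in a microRNA gene. AEN, a nuclease that p53 induces, held an RPL22L1 peak at 88611826 to 88611855 on chromosome 15, within the bounds of MIR7-2. In the hairpin, shown on its own strand, capitals mark the bases under the peak. In the mature form that RefSeq lists for it, capitals mark the seed.
MIR7-2 hairpin (chr15:88611825-88611934, plus strand): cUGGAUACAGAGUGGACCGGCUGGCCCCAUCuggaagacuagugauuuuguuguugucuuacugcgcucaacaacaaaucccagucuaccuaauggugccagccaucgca
hsa-miR-7-2-3p (bases 72 to 93 of the hairpin): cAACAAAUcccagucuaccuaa
The peak covered bases 2 to 31 of the hairpin and shared none with that mature form, the only form compared. It was flat, scored 224 and stood at the top 20.7% of the RPL22L1 list. It lay before the listed start of AEN, whose RefSeq bounds begin 16.7 kb ahead of that start, and was 10183 bases from the nearest RPL22 peak.

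Nearly all of the p53 targets held a summit in both lists. In the RPL22 list 30 of 32 did (93.75%, 79.2 to 99.2%), beside 68.3% of all protein-coding genes. In the RPL22L1 list 31 of 32 did (96.9%, 83.8 to 99.9%), beside 69.8%. For the 200 protein-coding genes nearest in length to each member, the mean share with a summit was 66.7% and 68.5%. When flat peaks were left aside, 27 members held a summit in the RPL22 list, beside 51.7% of protein-coding genes, and 23 held one in the RPL22L1 list, beside 45.4%. SPATA18, a factor of mitochondrial quality control, had no summit in either list, and TRIAP1, a small mitochondrial survival factor, had none in the RPL22 list. BTG2, RPS27L and SUSD6 had only flat peaks in the RPL22 list, and 8 members had only flat peaks in the RPL22L1 list. Such genes were not particular to the members. Of protein-coding genes 68.3% held an RPL22 summit but only 51.7% one that was not flat, and for RPL22L1 these shares were 69.8% and 45.4%.

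Over 1147 kb of gene, RPL22 had 245 summits and RPL22L1 had 567. These are 0.214 and 0.494 summits per kb, beside 0.103 and 0.174 over all protein-coding genes. The median member held 6 RPL22 and 10 RPL22L1 summits, where the median protein-coding gene held 3 and 4. Summits of peaks that were not flat numbered 117 and 189, with a median of 3 per member in both lists, and of 1 and 0 per protein-coding gene. KITLG alone held 149 of the 567 RPL22L1 summits, or 26.3%. Without KITLG the RPL22L1 values were 418 summits in all, 0.395 per kb, and 112 that were not flat, beside 230, 0.217 per kb and 104 in the RPL22 list. The plot of summits by member shows how far apart the genes stood, with FBXW7 and KITLG at the far right.

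**Figure D1:**
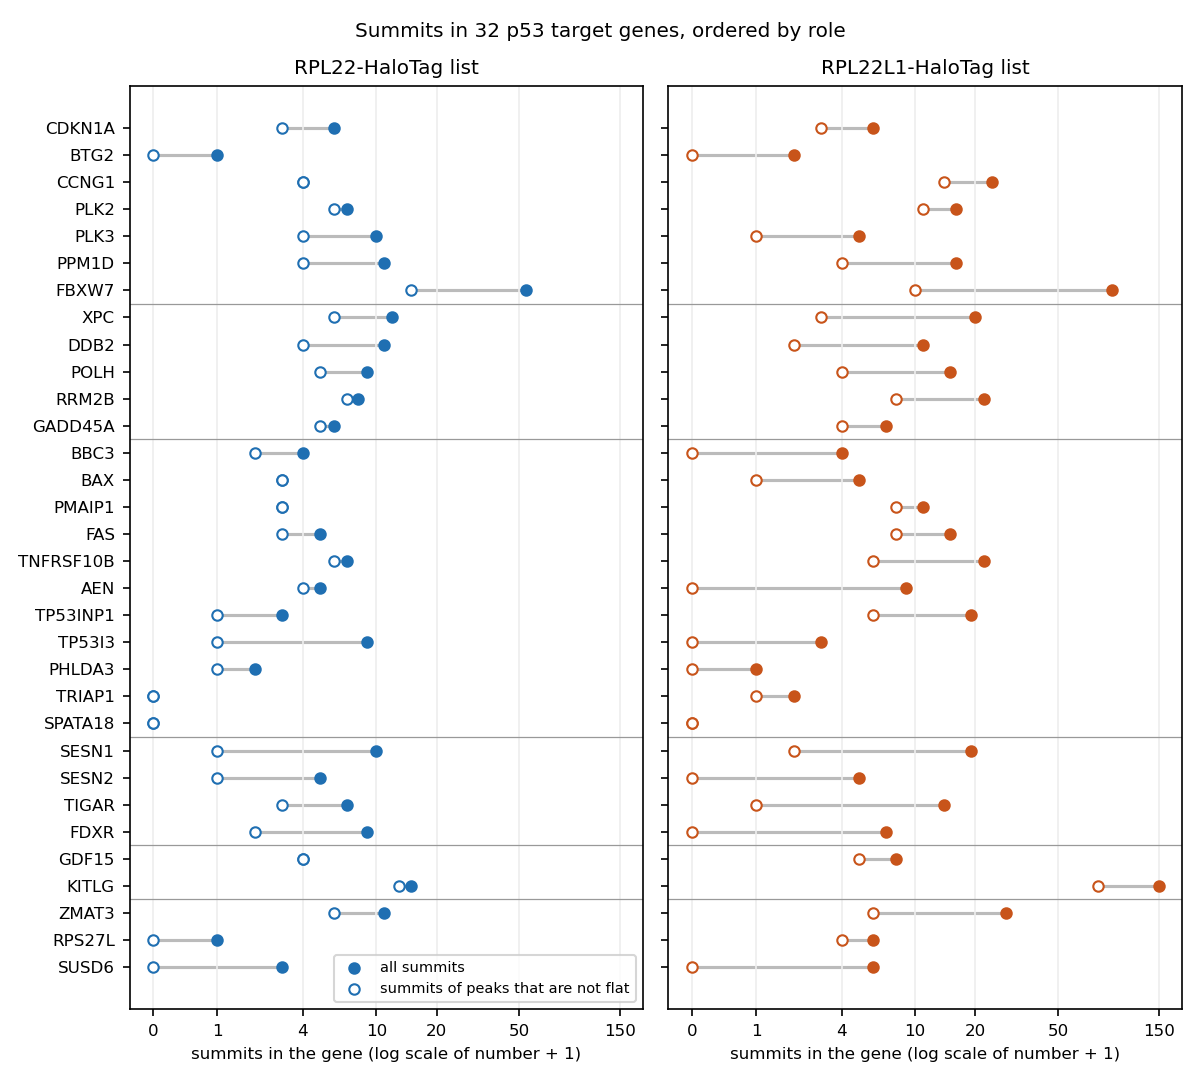
Summits in each of the 32 p53 target genes, grouped by role, for the RPL22 list (left) and the RPL22L1 list (right), on a log scale of the number plus 1. Filled points count all summits and open points those of peaks that are not flat, and the highest point is KITLG with 149 RPL22L1 summits.

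Set beside genes of like length, most members stood in the upper part of the range. A member's percentile is the share of its 200 length neighbours that held fewer summits, with ties counted at mid-rank. It was 50 or more for 25 of 32 members in the RPL22 list, beside 46.7% of protein-coding genes ranked in the same way, and for 29 in the RPL22L1 list, beside 47.1%. The median percentile was 64.4 and 76.25. Each list placed 7 members above percentile 90, beside 10.1% and 9.90% of protein-coding genes. In the RPL22 list these were GADD45A, PLK3, TP53I3, FBXW7, FDXR, PLK2 and GDF15. In the RPL22L1 list they were KITLG, PMAIP1, PLK2, GDF15, GADD45A, CCNG1 and FBXW7, so that 4 genes were in both groups. The share of protein-coding genes above percentile 90 in both lists was not computed, so whether 4 is usual is unknown. Only SPATA18 lay below percentile 10, in either list, where 5.06% and 5.37% of protein-coding genes did. Counted by peaks that were not flat, 25 and 22 members were at 50 or more, beside 44.0% and 40.9%.

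**Figure D2:**
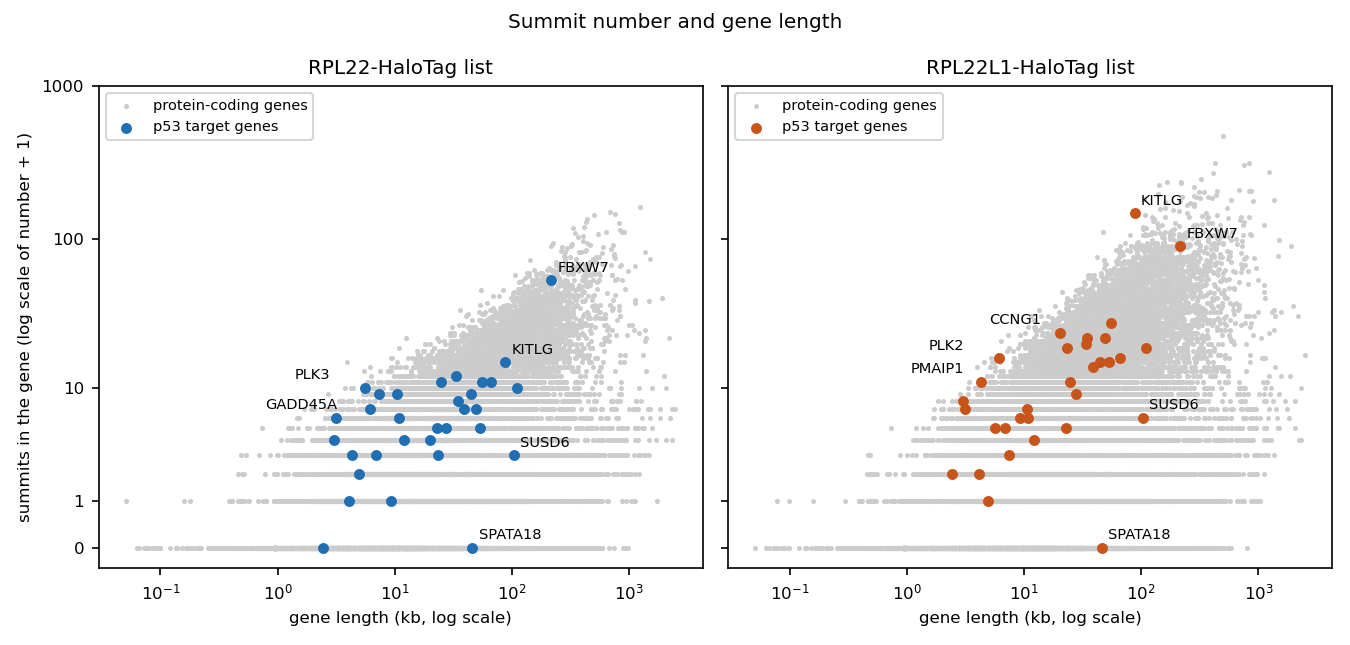
Number of summits plus 1 against gene length in kb, both on log scales, for 20050 protein-coding genes (grey) and the 32 p53 target genes (coloured), in the RPL22 list (left) and the RPL22L1 list (right). Summit number rises with length; KITLG with 149 summits stands at the upper edge of its length range on the right, and SPATA18 with 0 at the bottom of both panels.

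**Figure D3:**
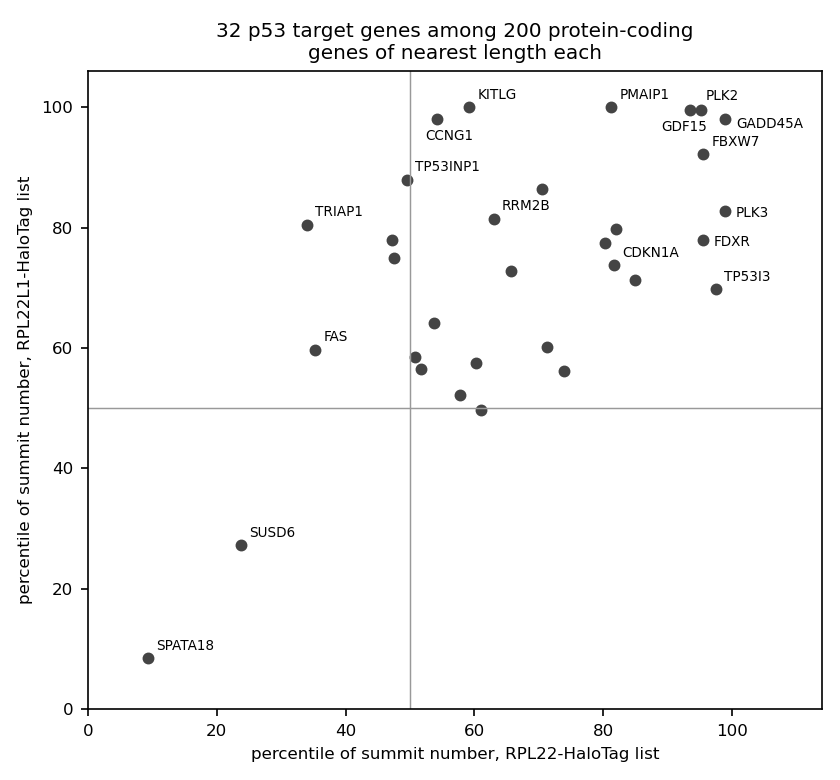
Percentile of each member's summit number among the 200 protein-coding genes nearest in length, RPL22 list on the horizontal and RPL22L1 list on the vertical axis, with lines at 50. GADD45A, PLK2, GDF15 and FBXW7 lie above 90 on both axes, and KITLG and CCNG1 lie above 90 on the vertical axis with 59.25 and 54.25 on the horizontal one.

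Among the 7 genes of cell-cycle arrest and feedback, all held summits in both lists, 93 and 159 in sum. CDKN1A, the inhibitor of cyclin-dependent kinases that halts cells after damage, held 6 summits in each list, of which 3 were not flat in each. Its length neighbours had a median of 1.5 and 2, and its percentile was 81.75 and 73.75. The strongest CDKN1A peaks of both lists fell together near the 3′ end of the gene on chromosome 6. The highest RPL22 peak, at 36685754 to 36685794, scored 188 (top 5.08%) and overlapped an RPL22L1 peak at 36685777 to 36685810 that scored 241 (top 18.5%), with summits 2 bases apart. The highest RPL22L1 peak, at 36685860 to 36685914, scored 686 (top 1.85%) and lay 65 bases from the nearest RPL22 peak. A second overlap joined an RPL22 peak at 36687253 to 36687287 and an RPL22L1 peak at 36687223 to 36687256. They scored 77 (top 18.4%) and 76 (top 71.4%), shared only 4 bases and had summits 32 bases apart. The bounds of CDKN1A begin 2.25 kb before its listed start, and 2 flat RPL22 summits lay in that stretch. So the whole lists placed equal numbers of summits in CDKN1A, and 2 pairs of peaks overlapped. The RPL22L1 list is longer. Limited to its highest-scoring peaks, near the length of the RPL22 list, it held 4 summits there against 6.

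CCNG1, which encodes cyclin G1 and lies on chromosome 5, held 4 RPL22 summits and 24 RPL22L1 summits, 4 and 14 of them not flat. Its RPL22L1 list included the highest peak of any member in rank, at 163439398 to 163439504, with a score of 1715 (top 0.333%). The RPL22 list had a peak at the same place, 163439423 to 163439505, with a score of 171 (top 5.89%), and the summits were 4 bases apart. All 3 RPL22 peaks of CCNG1 beyond the start site overlapped an RPL22L1 peak, while further RPL22L1 peaks with scores of 902 and 685 overlapped none. Of the RPL22L1 summits 7, of which 2 were not flat, lay where CCNG1 and NUDCD2 overlap.

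PLK2 and PLK3 encode stress-responsive kinases of the polo family, and both are short genes with many summits for their length. PLK2 held 7 RPL22 summits (1.15 per kb) and 16 RPL22L1 summits (2.62 per kb), of which 6 and 11 were not flat. Their highest peaks scored 226 (top 3.77%) and 629 (top 2.17%), and 3 sites were shared. PLK3 held 10 RPL22 summits (1.78 per kb) and 5 RPL22L1 summits (0.891 per kb), and only 1 of the latter was not flat. The highest RPL22 peak of PLK3, at 44803118 to 44803156 on chromosome 1, scored 338 (top 1.92%) and was 1222 bases from the nearest RPL22L1 peak. So in whole lists these 2 kinase genes differed in which list gave more summits. With the RPL22L1 list limited to near the length of the RPL22 list, PLK2 had 8 RPL22L1 against 7 RPL22 summits. PLK3 then had 2 against 10.

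FBXW7, the subunit of a ubiquitin ligase that selects cyclin E and MYC for degradation, is the longest member and held 54 RPL22 and 90 RPL22L1 summits. Its neighbours in length had a median of 17 and 24. Most of these summits were flat, and only 15 and 10 were not. The highest RPL22L1 peak, at 152322613 to 152322686 on chromosome 4, scored 1158 (top 0.635%) and overlapped an RPL22 peak with a score of 105 (top 12.0%). The highest RPL22 peak scored 293 (top 2.44%) and shared 5 bases with a flat RPL22L1 peak. PPM1D, the phosphatase that shuts off the p53 response, held 11 and 16 summits, 4 not flat in each list, and none of its peaks overlapped between the lists. BTG2, an antiproliferative adaptor of the deadenylase complex, held 1 and 2 flat summits.

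**Figure D4:**
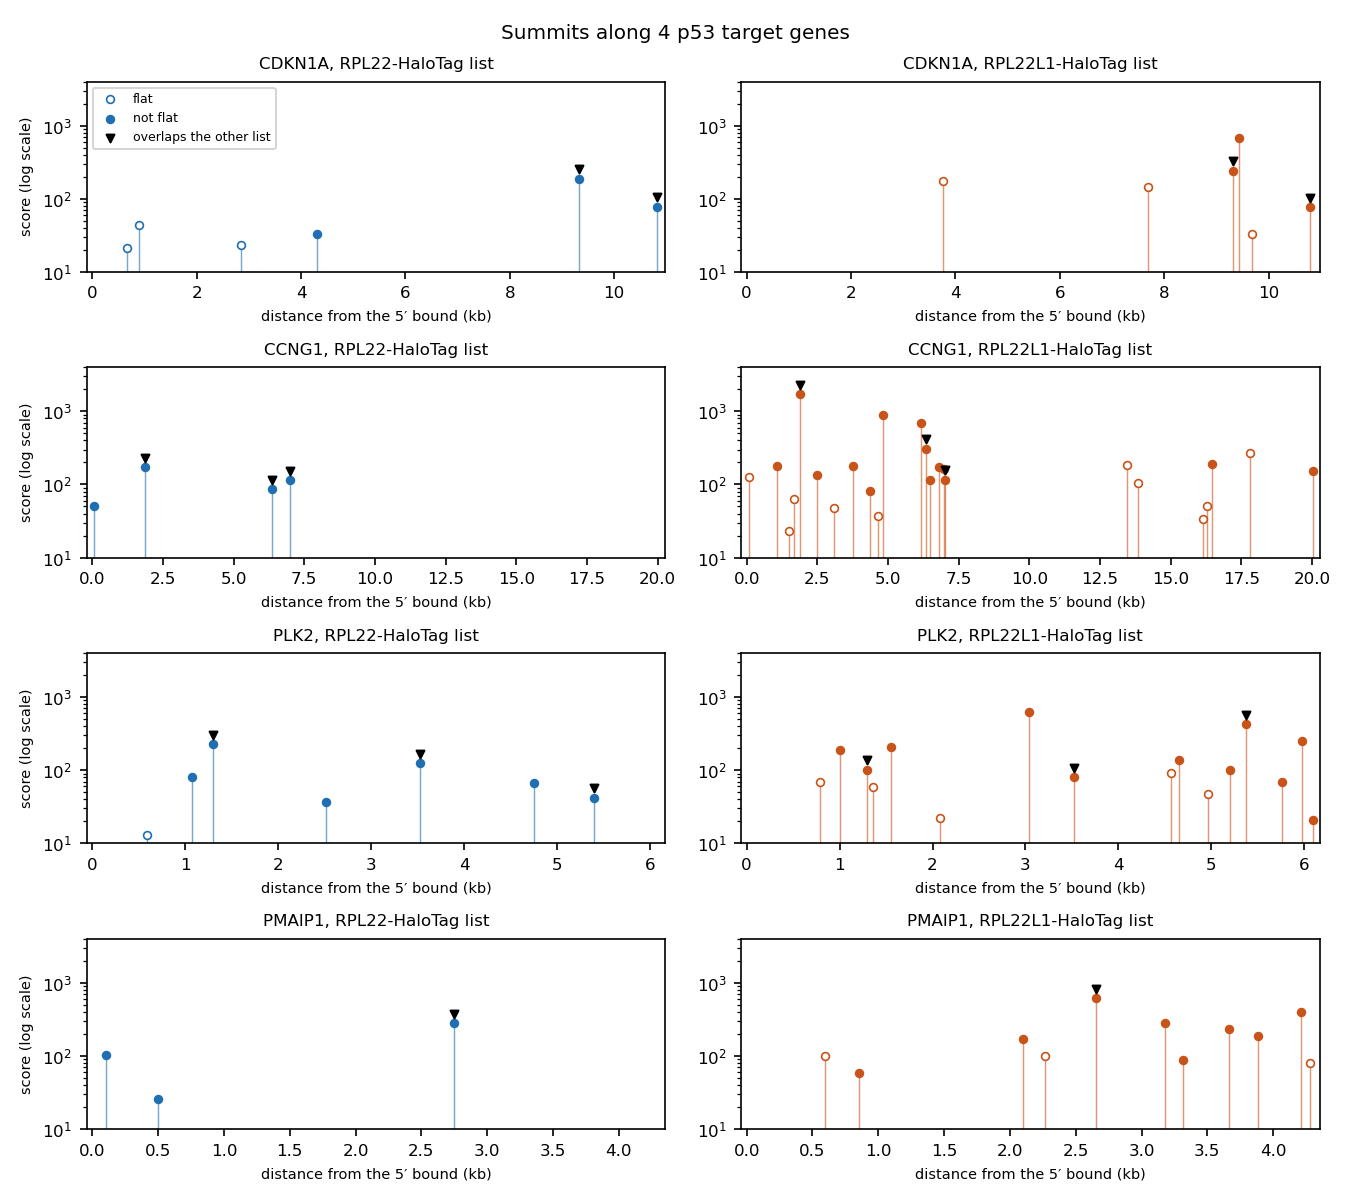
Summits along CDKN1A, CCNG1, PLK2 and PMAIP1 by distance from the 5′ bound of the gene in kb (horizontal) and score on a log scale (vertical), RPL22 list left and RPL22L1 list right. Filled circles are peaks that are not flat, open circles are flat peaks, and triangles mark peaks that overlap the other list, such as the CCNG1 peaks of 171 and 1715; scores are comparable within a column of panels only.

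All 5 genes of DNA repair and nucleotide supply held summits in both lists, 46 and 75 in sum, and 18 peaks of each list overlapped the other. RRM2B, the p53-induced small subunit of ribonucleotide reductase, held 8 RPL22 summits, of which 7 were not flat and 6 lay in peaks shared with the RPL22L1 list. The RPL22L1 list placed 22 summits there, 8 of them not flat. The best-ranked shared pair of RRM2B scored 256 (top 3.05%) and 628 (top 2.20%), with summits 1 base apart. GADD45A, a damage-induced gene of 3.13 kb, held 6 and 7 summits, or 1.91 and 2.23 per kb, and 4 of them were shared. Its highest peaks scored 236 (top 3.59%) and 548 (top 2.89%) and were not at the same place, each overlapping a lower peak of the other list.

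XPC and DDB2 recognise damaged bases in nucleotide excision repair. XPC held 12 and 20 summits, of which 6 and 3 were not flat. DDB2 held 11 in each list, of which 4 and 2 were not flat, and 3 peaks were shared, by 30, 3 and 1 bases. POLH, the polymerase that copies past ultraviolet damage, held 9 and 15, of which 5 and 4 were not flat, with 4 shared peaks. In these 3 genes the RPL22L1 list gave no fewer summits, but fewer of them had a shape.

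The 11 genes of cell death held 41 and 91 summits, 24 and 30 not flat, and spread from none to 22. PMAIP1 encodes NOXA, a BH3-only protein that opposes survival proteins at the mitochondrion. It held 3 RPL22 and 11 RPL22L1 summits, of which 3 and 8 were not flat, in 4.31 kb, and its RPL22L1 percentile was 100. One pair was shared: an RPL22 peak at 59902730 to 59902801 on chromosome 18 (score 278, top 2.64%) lay within an RPL22L1 peak at 59902647 to 59902850 (score 612, top 2.30%). Their summits were 87 bases apart, the farthest among all shared pairs of the members. BAX, which opens the outer mitochondrial membrane, held 3 and 5 summits with 2 shared peaks. BBC3, which encodes the BH3-only protein PUMA, held 4 and 4 with none shared, and none of the RPL22L1 ones had a shape.

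The death receptors are longer genes. FAS, which starts caspase cleavage when bound by its ligand, held 5 and 15 summits (percentile 35.25 and 59.75), with 3 shared peaks. The RefSeq bounds of FAS begin 26.7 kb before its first listed start. All 15 RPL22L1 summits and 4 of the 5 RPL22 summits lay after that start, and the other one lay in ACTA2. TNFRSF10B, a receptor for the death ligand TRAIL, held 7 and 22 summits, 6 not flat in each list, and its highest RPL22L1 peak scored 899 (top 1.07%) with the nearest RPL22 peak 1137 bases away.

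For a pair of the death genes another gene lies over every summit. TP53INP1, an autophagy and apoptosis factor, held 3 and 19 summits, of which 1 and 6 were not flat, and all of them lay in NDUFAF6 as well. TP53I3, an oxidoreductase gene, held 9 and 3, of which 1 and 0 were not flat, and all of them lay in FAM228B as well. Their values therefore cannot be given to one gene. AEN held 5 and 9 summits, and PHLDA3, an inhibitor of AKT signalling, 2 and 1. The 9 RPL22L1 peaks of AEN were all flat, including one with a score of 851 (top 1.21%). TRIAP1 held 2 RPL22L1 summits, of which 1 was not flat.

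The 4 genes of metabolism and redox held 31 and 45 summits, few of which had a shape, 7 and 3. SESN1 and SESN2 encode sestrins, which restrain mTORC1 under stress. SESN1 held 10 and 19 summits, but 8 and 12 of these lay in other genes within its bounds, in ARMC2 for all but one. SESN2 held 5 in each list. TIGAR, a phosphatase that lowers glycolytic flux, held 7 and 14 summits. Its highest RPL22L1 peak scored 878 (top 1.12%) and was flat, and 1 site was shared, with scores of 87 and 428. FDXR, the reductase that passes electrons to mitochondrial ferredoxin, held 9 and 7, and its 2 shared pairs were flat in both lists.

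Of the 2 genes of secreted signals, KITLG gave the largest difference in summit number among the members. KITLG encodes stem cell factor, the ligand of the receptor KIT, and spans 88492793 to 88580471 on chromosome 12. It held 15 RPL22 and 149 RPL22L1 summits, and 13 and 77 of these came from peaks with a shape. Genes of its length had a median of 12 and 16.5, and its percentile was 59.25 and 100. Among all 20050 protein-coding genes it was number 43 by RPL22L1 summits and number 8 by RPL22L1 summits that were not flat. By RPL22 summits that were not flat it was number 608, counting ties from the best place. LOC124902979 lies inside KITLG and held 8 of the RPL22L1 summits, which leaves 141.

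The RPL22L1 summits of KITLG were spread along the whole gene. With the gene split from its 5′ bound into 3 segments of 29.2 kb, they numbered 51, 46 and 52, and those that were not flat 15, 25 and 37. The median gap between neighbouring summits was 393 bases in the RPL22L1 list, with a largest gap of 2636, against 2993 and 20352 bases in the RPL22 list. Of the 15 RPL22 peaks 8 overlapped an RPL22L1 peak, and 7 of those pairs had a shape on both sides. The best-ranked pair, at 88516313 to 88516373 and 88516315 to 88516465, scored 338 (top 1.92%) and 854 (top 1.20%) and had its summit at the same base in both lists. RPL22L1 peaks of KITLG scored from 13 to 854 with a median of 95, below the 124 of the whole list.

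**Figure D5:**
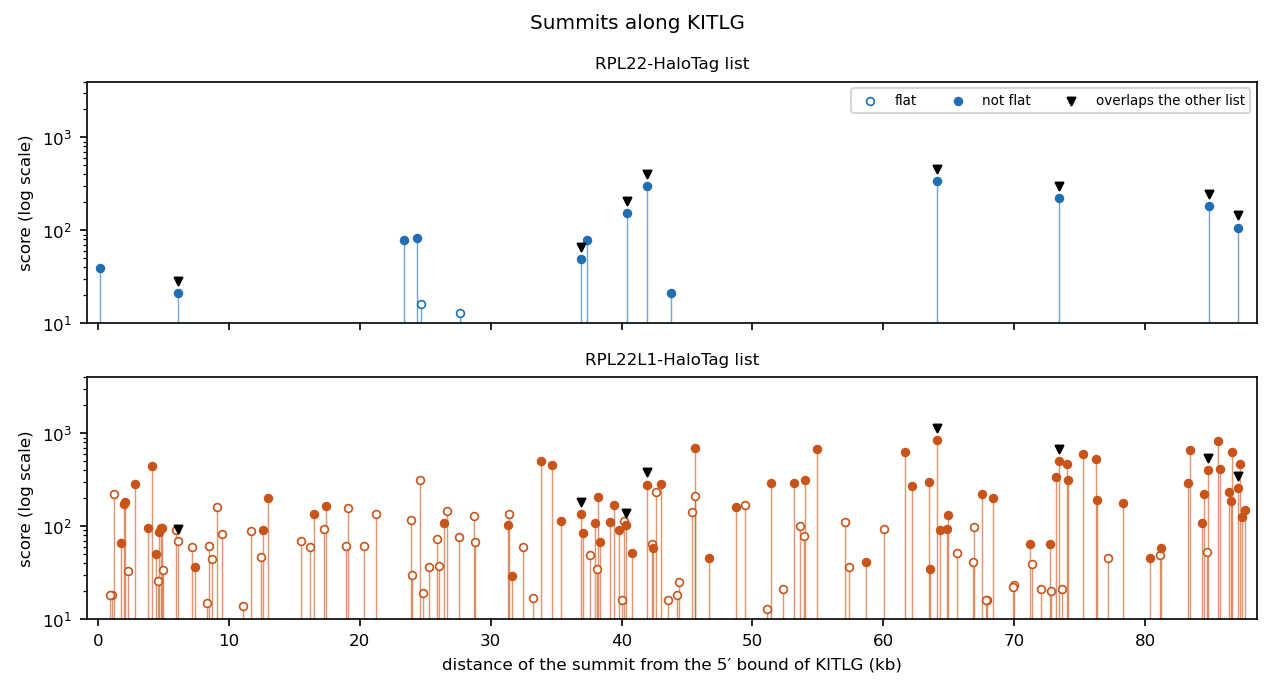
Summits along KITLG by distance from its 5′ bound in kb (horizontal) and score on a log scale (vertical), for the RPL22 list (top, 15 summits) and the RPL22L1 list (bottom, 149 summits). Filled circles are peaks that are not flat, open circles are flat, and triangles mark the 8 peaks of each list that overlap the other, including the pair of 338 and 854.

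GDF15, a secreted stress cytokine of the TGF-beta family, is a gene of 3.02 kb and held 4 and 8 summits, or 1.32 and 2.65 per kb. All 4 RPL22 summits and 5 of the RPL22L1 summits were not flat. Of the RPL22 peaks 3 overlapped an RPL22L1 peak, and the highest, at 18389081 to 18389130 on chromosome 19, scored 310 (top 2.24%). Its partner scored 168 (top 34.4%), with summits 4 bases apart. The highest RPL22L1 peak of GDF15 scored 428 (top 4.81%) and lay at the other end of the gene, over an RPL22 peak that scored 76.

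Of the 3 remaining genes, ZMAT3, an RNA-binding regulator of splicing, held 11 and 28 summits, 6 not flat in each. Its highest peak in both lists was the flat one at the start site printed above, with scores of 315 (top 2.12%) and 452 (top 4.23%). RPS27L, a paralog of the ribosomal protein RPS27, held a single flat RPL22 summit with a score of 19 (top 94.8%). The RPL22L1 list gave it 6, of which 4 were not flat, with a highest score of 965 (top 0.912%) and no RPL22 peak within 6110 bases. SUSD6, 103.5 kb long, held 3 and 6 summits, all flat, and had percentiles of 23.75 and 27.25.

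The highest peak of a member often stood within the top 10% of its list. This held for 17 members in the RPL22 list, beside 32.2% of protein-coding genes, and for 22 in the RPL22L1 list, beside 39.6%. None reached the top 1% in the RPL22 list, beside 4.67%. In the RPL22L1 list CCNG1, FBXW7 and RPS27L did, beside 7.50%. The member closest to the top of the RPL22 list was KITLG, level with PLK3 at 338.

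Sites common to both lists were found in 20 of the 32 members, beside 39.9% of protein-coding genes in either list. Another 10 members held summits in both lists with no shared site, and no share of protein-coding genes is given for this. There were 59 overlapping pairs, which shared from 1 to 92 bases, with a median of 14 bases between the summits. They were 24.1% (18.9 to 29.9%) of the RPL22 member peaks and 10.4% (8.02 to 13.2%) of the RPL22L1 ones, beside 19.1% and 11.4% of peaks in protein-coding genes. When member peaks were moved by 1000 bases to either side, 4.49 and 5.31% of the RPL22 peaks and 2.29 and 1.94% of the RPL22L1 peaks overlapped. Among peaks that were not flat the shares were 43.6% (34.4 to 53.1%) and 19.6% (14.2 to 26.0%), beside 39.7% and 26.5% in protein-coding genes. Among flat peaks they were 6.25% (2.74 to 11.9%) and 5.82% (3.68 to 8.68%). In protein-coding genes 79786 RPL22 and 166120 RPL22L1 summits were flat. There 24718 and 24909 peaks overlapped the other list, of which 19837 and 13616 were not flat, so few flat peaks overlapped there too. Of the 59 member pairs, both peaks had a shape in 36, and both were flat in 7.

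Flat peaks made up 52.2% (45.8 to 58.6%) of the RPL22 summits of members and 66.7% (62.6 to 70.5%) of the RPL22L1 ones, beside 61.5% and 76.4% in protein-coding genes. KITLG bore on the second value, which was 73.2% (68.7 to 77.4%) without it.

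The RPL22L1 list was longer, so the proteins were also compared at like length. In whole lists 23 members held more summits in the RPL22L1 list, beside 49.0% of protein-coding genes, 4 held fewer (PLK3, TP53I3, FDXR and PHLDA3), beside 19.4%, and 5 held equal numbers, beside 31.6%. The RPL22L1 list was then limited to its 149971 peaks with scores above 98, the length nearest to that of the RPL22 list. The members held 314 summits in this shorter list, and 243 without KITLG, beside 245 and 230 in the RPL22 list. Now 14 members held more in the RPL22L1 list, beside 28.4%, 13 held fewer, beside 37.0%, and 5 were equal, beside 34.7%.

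A log2 ratio of summit numbers, with 1 added to each, was taken at like length for the 22 members whose summits in both lists added up to 10 or more. It was above 1 in 4 of them (18.2%), beside 5.83% of 7787 protein-coding genes, and below -1 in 2 (9.09%), beside 9.66%. The median was 0 for these members and also for all these genes. KITLG had 71 RPL22L1 summits against 15, a ratio of 2.17, and was number 37 of the 7787 genes. CCNG1 had 17 against 4 (1.85), TP53INP1 had 9 against 3 (1.32) and PMAIP1 had 8 against 3 (1.17). On the other side TP53I3 had 1 against 9 (-2.32) and PLK3 had 2 against 10 (-1.87). PHLDA3, under the limit of 10 summits, had 0 against 2 (-1.58). From peaks that were not flat alone, KITLG had 55 against 13 and CCNG1 13 against 4, and their ratios were 2.00 and 1.49. On that count 6 members reached 10 summits. Of these KITLG and CCNG1 were above 1, beside 7.65% of protein-coding genes, and 0 were below -1, beside 12.2%. TP53INP1, PMAIP1, TP53I3 and PLK3 held fewer than 10 such summits, with ratios of 1.32, 0.81, -1 and -1.32. In whole lists 24 members reached 10 summits. Of these 9 were above 1, beside 30.6% of protein-coding genes, and 1 was below -1, beside 2.50%. TP53I3 and PLK3 had -1.32 and -0.87 there. TP53INP1 and TP53I3 are the genes whose summits all lie in a second gene. The remaining 16 of the 22, CDKN1A with -0.49 among them, lay between -1 and 1.

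Around start sites, peaks were looked for from 250 bases before to 50 bases after each start that RefSeq lists, which could be done for 27 members. BAX, CCNG1, DDB2, PMAIP1 and ZMAT3 had an RPL22 peak there (18.5%, beside 10.5% of 15843 protein-coding genes). BAX, CCNG1 and ZMAT3 had an RPL22L1 peak there (11.1%, beside 8.43%). The same bases were listed by both proteins in ZMAT3 alone. The RPL22 peaks of BAX and DDB2 were flat and low, with scores of 20 (top 94.0%) and 21 (top 79.4%). Both lay before the gene bounds, so they are not among the member summits counted above.

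Of 49 other genes of the p53 pathway, regulators and further targets, 47 held a summit in each list (95.9%). The shares of protein-coding genes were 68.3% and 69.8%. The median pathway gene held 8 RPL22 and 12 RPL22L1 summits. Over their summed length the pathway genes held 0.234 and 0.408 per kb, near the 0.214 and 0.494 of the members. Of the 33 with at least 10 summits at like length, 3 had a log2 ratio above 1, beside 5.83% of protein-coding genes. In 2 it was below -1, beside 9.66%, and the median of the 33 was 0.15. The highest RPL22 peaks of the pathway genes were in MDM4, the inhibitor of p53 (1046, top 0.437%), and in CASP8 (911, top 0.499%). CASP8 is the initiator caspase of death receptors. The highest RPL22L1 peaks were in CDK1, the mitotic kinase (2335, top 0.243%), and in EP300, an acetyltransferase that acts on p53 (1547, top 0.382%).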

How the data were processed

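GoldCLIP libraries of HCT116 cells with RPL22-HaloTag and RPL22L1HaloTag were used, 1 each; no replicates exist to compare, and read depth is unknown. The submitters' processing notes name cutadapt 4.8, STAR 2.7.10a, UMI-tools 1.1.5, MACS3 3.0.0a6 and hg38, with no role or order; the control used for peak calling is not given in the sources used here. Each deposited list has 10 columns without a header. The score of each peak was set by the authors, its scale is not stated in the file, and peaks are listed per library.

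Summits (start plus offset) were counted within RefSeq gene bounds of GRCh38.p14, and peaks overlapped when they shared at least 1 base. The RefSeq table used holds no exons, so exon, intron and UTR positions were not analysed here. Start sites and strand came from RefSeq promoter entries, which matched 27 of 32 members. Figures were drawn with matplotlib 3.10.9 and values computed with scipy 1.17.1, pandas 2.3.3 and numpy 2.4.6 under Python 3.11.15, and the counting and overlap code was tested on simulated data.

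Named with values were, in each list, the 5 members with the highest-scoring peak, the most summits and the most summits per kb (at least 3 summits). Added to these were the 3 with the largest log2 ratio in each direction, the 5 with the best-ranked shared peaks that were not flat on either side, members without a summit in a list, CDKN1A, and the 2 pathway genes with the highest peak in each list. Other members were named so that each is accounted for, after their values were seen. The members and gene lists were chosen with earlier results of these data known. Start-site windows, printed sequences, places among all genes, segments along genes and shares of protein-coding genes beside percentiles, directions and top ranks were added after the data were seen. Alternatives tried were no flat peaks, peaks at or above the median score, lists of like size, whole lists for the ratio, another rule for shared summits, merged peaks, 50% overlap, 100 neighbours, 0.5 added to summit numbers, and at least 3 summits.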

Additional observations from a re-analysis of the deposited data

How the results depend on the processing

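No paired analysis was possible because each group had 1 library, and the same reason leaves no replicate to leave out. Of 76 alternative values of the main results, 52 lay within a tolerance of the reported one and 24 moved. Some of the 52 could not move. Limiting the RPL22L1 list to like size leaves counts, rates and flat shares of the RPL22 list as they are. Merged peaks also gave the reported values unchanged. The tolerance was 1.5 times for counts and rates, the 95% interval of a share or median percentile, and 1.5-fold for the log2 ratio of a gene; the cause of a move was not tested beyond what the alternative itself removes. Members with a summit ranged from 27 to 30 for RPL22 and from 23 to 31 for RPL22L1, and the median percentile from 64.4 to 74 and from 75.75 to 77.9. Without flat peaks the summits were 117 and 189 in the RPL22 and RPL22L1 lists (0.102 and 0.165 per kb), the overlapping shares with flat peaks left out of both lists were 30.8% and 19.0%, and 2 members had a log2 ratio above 1 and 0 below -1. With peaks that scored below their list's median left out, the summits were 160 and 268 (0.139 and 0.234 per kb), the flat shares 32.5% and 52.2%, and the RPL22L1 overlapping share 14.2%. With the RPL22L1 list at like size, it gave 314 summits (0.274 per kb), a flat share of 54.5% and an overlapping share of 14.97%. Requiring 50% of each peak to be shared gave overlapping shares of 10.2% and 4.41%. With whole lists 9 members had a ratio above 1, beside 30.6% of protein-coding genes, and 1 below -1, beside 2.50%. Without KITLG, an alternative chosen after seeing the data, the RPL22L1 flat share was 73.2%. Leaving out summits that lie in another gene was also chosen after seeing the data and moved none of the values it was applied to. Of 128 alternative values for single genes, 90 lay within the tolerance and 38 moved, 22 up and 16 down. In 10 the sign changed, for 0 genes past 1 or -1: with whole lists BTG2 went from -1 to 0.58 and FBXW7 from -0.20 to 0.73, and without flat peaks TIGAR went from 0.32 to -1 and ZMAT3 from 0.74 to -0.49. Depth limits all values: a site missing from a list is not shown to be unbound.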

Other observations

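Each of the 27 members whose strand is listed was split from its 5′ bound into 3 segments of equal length. Of the RPL22 peaks that were not flat, 32, 25 and 40 of 97 had their summit in the 5′, middle and 3′ segment, so that 41.2% (31.3 to 51.7%) lay in the last one, beside 45.1% in protein-coding genes with a listed strand. Of the RPL22L1 peaks that were not flat, 40, 45 and 80 of 165 did, so that 48.5% (40.6 to 56.4%) lay in the last one, beside 48.1%. Without KITLG the share in the 3′ segment was 42.9% (32.1 to 54.1%) and 48.9% (38.1 to 59.8%). The bounds of FAS and AEN begin 26.7 and 16.7 kb before their first listed start, and all 3 RPL22 and 8 RPL22L1 peaks of FAS that were not flat lay in the 3′ segment. Without these 2 genes, an alternative chosen after seeing the data, the share was 36.7% (26.8 to 47.5%) and 45.9% (37.9 to 54.0%). Over all summits the RPL22 list had 41.1% (34.5 to 47.9%) in the 5′ segment and 36.1% (29.7 to 42.8%) in the 3′ segment, beside 31.2% and 39.9% in protein-coding genes, and the RPL22L1 list had 33.1% (28.9 to 37.4%) and 40.9% (36.6 to 45.4%), beside 29.1% and 41.9%. Of all 219 RPL22 summits FBXW7 alone held 54, and of the 90 in the 5′ segment it held 26. Shares without FBXW7 were not computed, and the intervals do not allow for summits that share a gene. The segments hold unknown lengths of exon, whose part in the shares above was not tested.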
